A study of Mus musculus with 24 samples.

Results

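Adiponectin (Adipoq), leptin (Lep) and resistin (Retn) are hormones that fat cells release into the blood. They were taken here as every probe set whose only annotated gene was one of the 3, which gave 4 of the 12488 probe sets on the Affymetrix Murine Genome U74Av2 array, for 3 of 8252 genes with a probe set of their own. Adipoq was read by 99104_at, Retn by 102366_at and Lep by 98443_at and 98444_g_at. Brown and white fat cells of the mouse were isolated and kept in primary culture, and total RNA was hybridised at 7 days, when the labels call the cells differentiated, or at 4 days, when they call them non-differentiated. Brown cells had 5 arrays at day 7 and 5 at day 4, and white cells had 6 arrays at day 7 and 8 at day 4. The study set white against brown and mature against precursor cells. Strain, sex, age, fat depot and the number of animals or cultures behind a group are not given in the sources used here, so p-values measure only the spread between arrays, which may be technical. The brown array numbers all come before the white ones, so that handling and cell type cannot be told apart.

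Adiponectin is secreted almost only by adipocytes, folds into collagen-like multimers and is held to improve insulin action through the receptors Adipor1 and Adipor2. Leptin reports the size of the fat stores to the hypothalamus through Lepr and rises with the size of the fat cell. Resistin, a cysteine-rich protein, comes from adipocytes in the mouse and mainly from macrophages in humans. Both Adipoq and Retn are known targets of Pparg and C/EBP factors, and Lep of C/EBP alpha.

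The values are signals on a linear scale, brought to a common trimmed mean of 150 per array. Median signal per array was 41.9 to 59.0, and correlations between arrays of a group were 0.890 to 0.964. Degraded RNA raises the signal of the 3' Gapdh probe set over that of the 5' one. This Gapdh ratio averaged 1.36 ± 0.204 in white cells at day 7 (SD, n = 6) and 0.943 ± 0.0955 in white cells at day 4 (SD, n = 8), and the difference passed a two-sided exact permutation test (p = 0.00133, adjusted over 4 comparisons 0.00533). The ratio averaged 0.889 ± 0.0379 in brown cells at day 7 and 0.884 ± 0.0825 in brown cells at day 4 (SD, n = 5 each). Between brown and white cells at day 7 the ratio differed too (exact permutation p = 0.00433, adjusted 0.00866), so it moved with every brown and white comparison at day 7, and at day 4 that test did not pass (exact permutation p = 0.272, adjusted 0.363). Of 9 brown fat markers listed, 5 were tested (Cidea, Cox8b, Cox7a1, Zic1 and Lhx8). All 5 were higher in brown than in white cells on both days. Among all genes 11.7% were higher at day 4 and 13.2% at day 7. Zic1 lay at the floor on all white arrays and so passed the filter on dim signals only through the brown arrays. The count of 5 is thus in part set by that filter. The brown fat uncoupling protein gene Ucp1 did not pass the filter on dim signals. Its brighter probe set had medians of 53.1 at brown day 7 and 19.4 at brown day 4. In white cells they were 8.71 at day 7 and 5.34 at day 4. The listed genes Ppargc1a, Dio2 and Elovl3 did not pass either. At day 7 their medians were lower in brown than in white cells (7.13 against 10.8, 13.3 against 20.3 and 2.43 against 4.66). At day 4 the median of Dio2 was lower too. Those of Ppargc1a (6.61 against 4.95) and Elovl3 (4.34 against 4.09) were higher in brown cells at day 4. All these medians of the 3 genes were dim. Of 6 white fat markers tested, 5 were lower and 1 was higher in brown than in white cells on both days. The higher one was Nnat, against its label, with log2 differences of 3.82 ± 0.50 at day 4 and 3.47 ± 0.53 at day 7. None of the 13 tested adipocyte markers lay at the floor on all arrays of any group. The same held for the tested fibroblast, macrophage, endothelial and muscle markers. A single array above the floor is enough for this, so it does not show that the day 4 cells carried the markers.

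The 250 bases before the annotated start of each gene are shown because Adipoq and Retn rose together from day 4 to day 7 and Lep did not (RefSeq, build GRCm38.p6, plus strand). Capitals mark the motifs searched for on both strands. The TATA box was searched as TATAA, the binding site of the factor NF-Y as CCAAT, the E-box as CANNTG and the core of nuclear receptor sites as AGGTCA. For the C/EBP factors the palindrome TTGCGCAA was searched, and apart from it the shorter string GCAAT, which the palindrome does not contain.
Adipoq, chr16:23146286-23146535: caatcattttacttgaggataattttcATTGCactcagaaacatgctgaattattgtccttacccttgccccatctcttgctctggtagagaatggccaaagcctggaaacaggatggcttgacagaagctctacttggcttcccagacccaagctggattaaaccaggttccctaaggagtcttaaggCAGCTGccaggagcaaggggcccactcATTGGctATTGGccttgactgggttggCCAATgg
Lep, chr6:29059971-29060220: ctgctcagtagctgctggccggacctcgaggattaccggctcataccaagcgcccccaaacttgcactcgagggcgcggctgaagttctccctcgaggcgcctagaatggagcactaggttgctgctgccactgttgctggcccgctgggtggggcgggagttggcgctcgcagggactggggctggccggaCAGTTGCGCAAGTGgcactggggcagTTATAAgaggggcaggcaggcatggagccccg
Retn, chr8:3655520-3655769: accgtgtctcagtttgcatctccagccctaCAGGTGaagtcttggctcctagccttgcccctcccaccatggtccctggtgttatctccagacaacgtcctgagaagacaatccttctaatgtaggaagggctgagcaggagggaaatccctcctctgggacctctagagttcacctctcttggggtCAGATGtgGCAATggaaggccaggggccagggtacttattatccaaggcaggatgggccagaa

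The Lep window held TATAA 31 to 27 bases before the start (matched on both strands, 1 base apart) and TTGCGCAA 55 to 48 bases before it, where the palindrome overlaps both E-boxes of that window. TTGCGCAA was present in 0.164% of 32851 windows of the same length and TATAA in 22.8%. The Adipoq window held CCAAT 3 times, 34 to 30, 27 to 23 and 7 to 3 bases before the start, and 33.8% of all windows held it at least 1 time. It also held 1 E-box and GCAAT 223 to 219 bases before the start. The Retn window held GCAAT 55 to 51 bases before the start, a motif present in 23.1% of all windows. It also held 2 E-boxes, and 66.2% of all windows had at least 1. AGGTCA, present in 14% of windows, was in none of the 3. These matches describe the letters only.

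Adiponectin signal was high at day 7 in both kinds of cell and lower and far more variable at day 4. Brown day 7 arrays 07, 08, 11, 12 and 22 gave Adipoq a signal of 5604, 5942, 4772, 5094 and 6306, while brown day 4 arrays 05, 06, 09, 10 and 19 gave 3161, 4959, 1169, 2476 and 1852. Of the day 7 arrays 4 lay above every day 4 array, and the groups overlapped only through day 4 array 06. In white cells the signal was 4611 to 6336 at day 7 (median 5895, n = 6), against 732 to 3099 at day 4 (median 2074, n = 8), with no overlap. White day 4 arrays 45 and 51, whose numbers stand outside the runs that hold both days, had the lowest values, 1181 and 732.

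Adipoq rose in both cell types. The log2 difference (day 7 minus day 4) was 1.19 ± 0.32 (SE) in brown cells, with a 95% interval of 0.53 to 1.84 (limma, adjusted p = 0.0145). It was 1.59 ± 0.27 in white cells, with an interval of 1.03 to 2.15 (adjusted p = 0.000378). The mean signal was 2.04 times as high at day 7 in brown cells and 2.75 times in white cells. The difference of the 2 changes, brown minus white, was -0.41 ± 0.42 (interval -1.27 to 0.46, adjusted p = 0.882) and did not pass. Leaving out brown day 4 array 09 ended the brown call (0.92, adjusted p = 0.0636). Once the fit included the Gapdh ratio, the white value was 1.29 ± 0.47 and no longer passed (adjusted p = 0.212).

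The spread of Adipoq between arrays was narrow at day 7. Its coefficient of variation was 11.2% at brown day 7, against 53.3% at brown day 4, and 13.8% at white day 7, against 42.1% at white day 4. The highest array was 1.32 and 1.37 times the lowest at brown and white day 7, against 4.24 and 4.23 times at brown and white day 4.

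**Figure D1:**
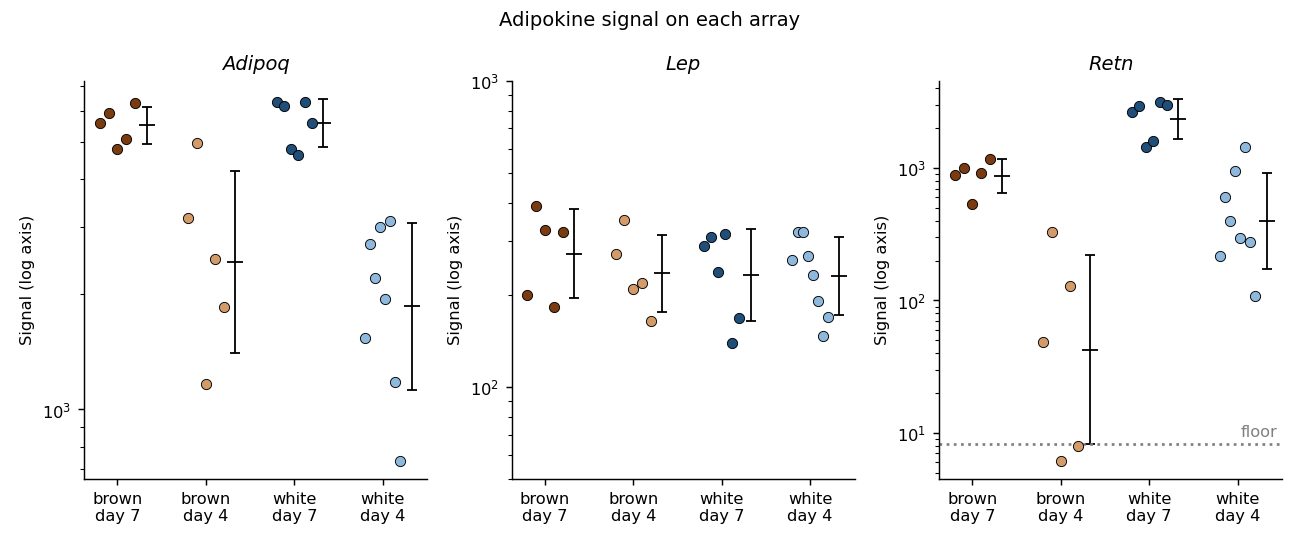
Signal (log axis) of Adipoq, Lep (98443_at) and Retn on each of the 24 arrays, with points for arrays and bars for the mean ± SD of log2 signal in each group. Adipoq and Retn were higher at day 7 than at day 4 in both cell types, Lep lay between 139 and 392 in all groups, and 2 brown day 4 arrays lay below the Retn floor of 8.21.

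Resistin showed a wider range than adiponectin. Its mean signal was lower in brown than in white cells on both days, with a call at day 4 only. Brown day 7 arrays 07, 08, 11, 12 and 22 gave Retn a signal of 889, 997, 536, 926 and 1166, while brown day 4 arrays 05, 06, 09, 10 and 19 gave 48.8, 330, 6.09, 128 and 7.91. No day 4 array reached the lowest day 7 value, and day 4 arrays 09 and 19 were at the floor. In white cells the signal was 1440 to 3134 at day 7 (median 2802, n = 6), against 108 to 1442 at day 4 (median 347, n = 8). Here 5 of the 6 day 7 arrays lay above all day 4 arrays, and the groups met at day 7 array 39 and day 4 array 42.

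Retn rose in both cell types. The log2 difference (day 7 minus day 4) was 4.36 ± 0.73 in brown cells (interval 2.87 to 5.86, adjusted p = 0.000334), ranking at place 1 of 6281 genes tested in that comparison. It was 2.56 ± 0.62 in white cells (interval 1.28 to 3.84, adjusted p = 0.00531), at place 8. Mean signal was 8.68 times as high at day 7 in brown cells and 4.58 times in white cells, so that the log2 size in brown cells leans on the 2 arrays at the floor. It was 3.64 with the floor at the 40th percentile and 3.28 on the scale of log2(signal + 32), and still passed on both. The difference of the changes, brown minus white, was 1.80 ± 0.96 (interval -0.16 to 3.77, adjusted p = 0.677) and did not pass. Its size depended on how dim values were treated, and was 0.845 on the scale of log2(signal + 32) and 1.08 under the higher floor. With the Gapdh ratio in the fit, the white value was 3.31 ± 1.06 and lost its call (adjusted p = 0.151).

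Leptin did not change detectably with time in culture. For 98443_at, brown day 7 arrays 07, 08, 11, 12 and 22 gave a signal of 199, 392, 327, 183 and 320, while brown day 4 arrays 05, 06, 09, 10 and 19 gave 272, 352, 209, 219 and 165. In white cells it was 139 to 318 at day 7 (median 264, n = 6), against 147 to 322 at day 4 (median 247, n = 8). The groups overlapped throughout. The log2 difference (day 7 minus day 4) was 0.21 ± 0.26 in brown cells (interval -0.33 to 0.75, adjusted p = 0.680) and 0.01 ± 0.22 in white cells (interval -0.45 to 0.47, adjusted p = 0.978). The intervals span folds of 0.796 to 1.68 in brown and 0.732 to 1.39 in white cells. The coefficient of variation was 31.6% at brown day 7, 29.4% at brown day 4, 31.1% at white day 7 and 27.7% at white day 4.

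The other leptin probe set, 98444_g_at, was dim. Its signal was 9.92 to 26.6 over the 24 arrays, it lay above the 40th percentile of its array (a signal of 23.8 to 35.8) on 0 of 24, and it was not tested. In brown cells its mean was 20.1 ± 2.41 at day 7 and 18.2 ± 3.65 at day 4 (SD, n = 5 each). In white cells the mean was 19.6 ± 4.47 at day 7 (SD, n = 6) and 16.6 ± 4.07 at day 4 (SD, n = 8). Its log2 values followed those of the brighter probe set only loosely over the 24 arrays (r = 0.345, both read from the same arrays). The brighter set was 7.04 to 23.7 times as bright, so that the leptin level rests on 1 probe set.

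Of the 3 genes, 2 rose in brown cells, where 12.1% of the 8397 probe sets tested changed, 6% higher and 6.05% lower. In white cells 2 rose, where 19% of probe sets changed, 8.36% higher and 10.6% lower. The day groups did not overlap for Retn in brown cells, as for 9.73% of probe sets, nor for Adipoq in white cells, as for 4.79%. Beside them, 6 of 13 tested adipocyte markers rose in brown cells and 0 fell, with a median log2 difference of 1.10, and 10 of 13 rose in white cells and 0 fell, with a median of 1.47. Over all 6281 genes the medians were 0.02 and 0.01. The rise of Adipoq lay close to those of Pnpla2, the main triglyceride lipase (1.29 ± 0.35 in brown and 1.53 ± 0.29 in white cells), and of Lipe, hormone-sensitive lipase (1.10 ± 0.30 and 1.47 ± 0.26). Thrsp, a lipid synthesis gene, had the largest rise of the list (3.42 ± 0.48 in brown and 3.61 ± 0.41 in white cells). The summed signal of the 13 markers was 15879 to 22689 at brown day 7, against 7537 to 13437 at brown day 4, and 13817 to 22931 at white day 7, against 6265 to 11149 at white day 4. Markers of other cells also moved between the days. In brown cells 5 of 12 fibroblast markers rose and 2 fell, 3 of 8 muscle markers fell and 1 of 10 macrophage markers rose. In white cells 3 fibroblast, 3 muscle and 2 macrophage markers rose and 0 fell. Their part in the rises of Adipoq and Retn was not tested. A larger share of fat cells and more RNA per fat cell cannot be told apart in such cultures. In place of 10, 0 of the 13 adipocyte markers were called in white cells once the fit included the Gapdh ratio, where 37 of 8397 probe sets were. Their median log2 difference was then 1.05 and their median SE 0.55 in place of 0.33. Without white day 4 arrays 45 and 51, 8 were called.

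Between the cell types, resistin was called lower in brown cells at day 4 only, and adiponectin and leptin were called on neither day. At day 4 the mean Retn signal was 104 ± 135 (SD, n = 5) in brown cells, against 538 ± 452 (SD, n = 8) in white cells, and the groups overlapped. The log2 difference (brown minus white) was -3.23 ± 0.66 (interval -4.58 to -1.88, adjusted p = 0.000725), which ranked at place 12 from the lowest of 6281 genes. The difference was -2.24 on the scale of log2(signal + 32) and still passed. Of the 3 genes 1 was called at day 4, and it was lower in brown cells. Among all probe sets 23% were called, 10.8% higher and 12.2% lower, and for 7.29% the groups did not overlap.

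At day 7 the mean Retn signal was 903 ± 231 (SD, n = 5) in brown cells, against 2462 ± 749 (SD, n = 6) in white cells. Every brown array lay below every white array, with a highest brown value of 1166 against a lowest white value of 1440, a separation that 18.1% of probe sets showed at day 7. The log2 difference was -1.43 ± 0.70 (interval -2.86 to 0.00494, adjusted p = 0.139) and did not pass in the fit that pools the spread of all 4 groups. It passed when only the 2 day 7 groups were fitted, with a standard error of 0.23 (adjusted p = 0.000321). It also passed with array weights (-1.48, adjusted p = 0.0396) and on the scale of log2(signal + 32) (-1.39, adjusted p = 0.0400). With the Gapdh ratio in the fit it was -2.29 ± 1.21 and did not pass (adjusted p = 0.356). The SD of log2 Retn signal was 0.42 at brown day 7 and 0.50 at white day 7, against 2.37 at brown day 4 and 1.21 at white day 4, so the pooled spread was set mostly by day 4. Of the 3 genes 0 were called at day 7, where 25.2% of probe sets were, 12.8% higher and 12.3% lower.

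Adipoq measured 0.38 ± 0.29 for brown minus white at day 4 (interval -0.21 to 0.98, adjusted p = 0.371) and -0.02 ± 0.31 at day 7 (interval -0.65 to 0.61, adjusted p = 0.971). Lep measured 0.03 ± 0.24 at day 4 (interval -0.46 to 0.52, adjusted p = 0.950) and 0.23 ± 0.25 at day 7 (interval -0.29 to 0.75, adjusted p = 0.557). The difference of the changes, brown minus white, was 0.20 ± 0.35 for Lep (interval -0.51 to 0.91, adjusted p = 0.947). In that comparison 0.214% of probe sets, 18 in all, passed (0.167% with a value above 0 and 0.0476% below), and none of the 3 genes did.

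**Figure D2:**
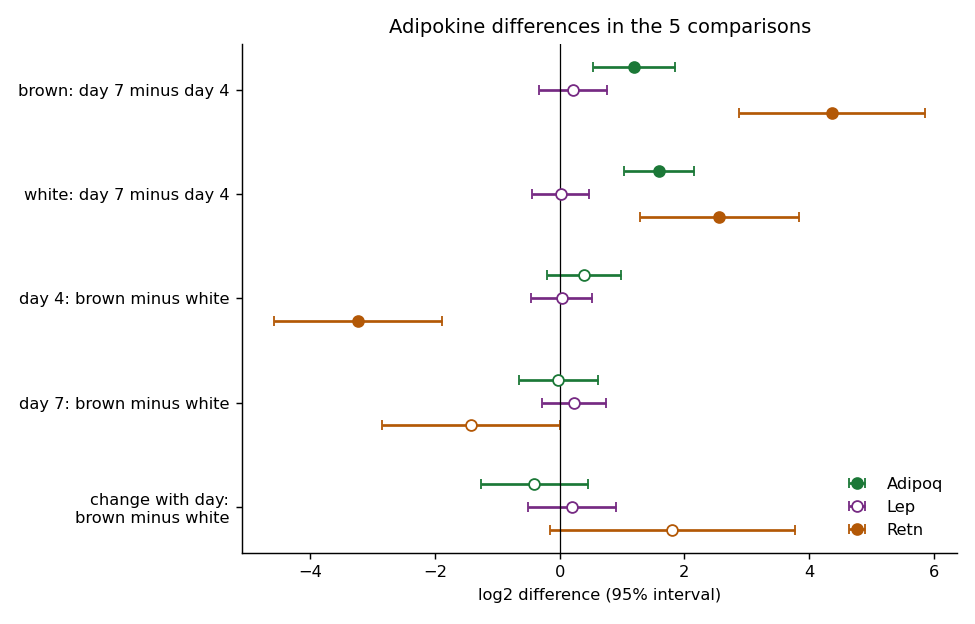
Log2 differences of Adipoq, Lep and Retn in the 5 comparisons (points) with 95% intervals (bars), filled where the adjusted p was under 0.05. Retn had the widest intervals and was the only 1 of the 3 called between brown and white cells, at -3.23 at day 4.

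The order of the groups differed from gene to gene. Retn ran from 2462 at white day 7 through 903 at brown day 7 and 538 at white day 4 to 104 at brown day 4 (mean signal). The neighbours brown day 7 and white day 4 overlapped, and their difference was not tested. Mean Adipoq signal was 5544 at brown day 7, 5643 at white day 7, 2723 at brown day 4 and 2048 at white day 4, and at each day the 2 cell types did not differ beyond their spread. Mean Lep signal lay between 239 at white day 4 and 285 at brown day 7, and no neighbours differed beyond their spread.

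Markers of other cells moved with the same comparisons. Among all genes 11.7% were higher and 12.8% lower in brown cells at day 4, and 13.2% higher and 12.3% lower at day 7. Of 12 preadipocyte and fibroblast markers, 9 were lower and 3 higher in brown than in white cells at day 4, and 9 were lower and 2 higher at day 7. Their summed signal was 15779 to 24295 at brown day 7, against 35448 to 43203 at white day 7, and 10808 to 13208 at brown day 4, against 18926 to 40546 at white day 4. Of 10 tested macrophage markers, 4 were lower in brown cells at each day. Their summed signal was 715 to 995 at brown day 7, against 905 to 1517 at white day 7, and 571 to 682 at brown day 4, against 677 to 2023 at white day 4, where the highest value was that of array 51 and the next was 1175. Array 51 also had the lowest Adipoq and Retn signal of its group. The defining macrophage gene Adgre1 lay under the filter on all 24 arrays. Of 8 striated muscle markers, 6 were higher and 0 lower in brown cells at day 4, and 2 higher and 1 lower at day 7. Their summed signal was 1663 to 2789 at brown day 4, against 564 to 1004 at white day 4. At day 7 it was 1124 to 1634 in brown cells, against 752 to 1249 in white cells. In a fit that held the Gapdh ratio, 2 macrophage markers were called lower at day 7. Of the fibroblast markers 3 were called there, 1 lower and the others higher in brown cells. The part of these cells in the Retn difference was not tested.

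The rises of Adipoq and Retn recurred within runs of neighbouring array numbers that held both days, although the labels do not say what a run stands for. Of these, 5 runs hold 4 consecutive numbers, and the run 19 to 22 holds only arrays 19 and 22. In the brown runs 05 to 08, 09 to 12 and 19 to 22, log2 Adipoq was higher at day 7 by 0.54, 1.54 and 1.77, and log2 Retn by 2.89, 4.44 and 7.15. In the white runs 33 to 36, 37 to 40 and 41 to 44, log2 Adipoq was higher at day 7 by 1.62, 0.87 and 1.28, and log2 Retn by 2.95, 1.30 and 2.23. The largest values of both genes, in the run 19 to 22, compare 1 array of each day, and for Retn the day 4 array was at the floor. Lep had no common direction, with -0.15, 0.19 and 0.96 in the brown runs and 0.05, -0.10 and -0.46 in the white runs. With the runs as a block, Adipoq measured 1.19 in brown (adjusted p = 0.000840) and 1.26 in white cells (adjusted p = 0.000400). Retn measured 4.36 (adjusted p = 0.000137) and 2.16 (adjusted p = 0.0206). Arrays 45 and 51 stood alone and dropped out of the white estimate.

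**Figure D3:**
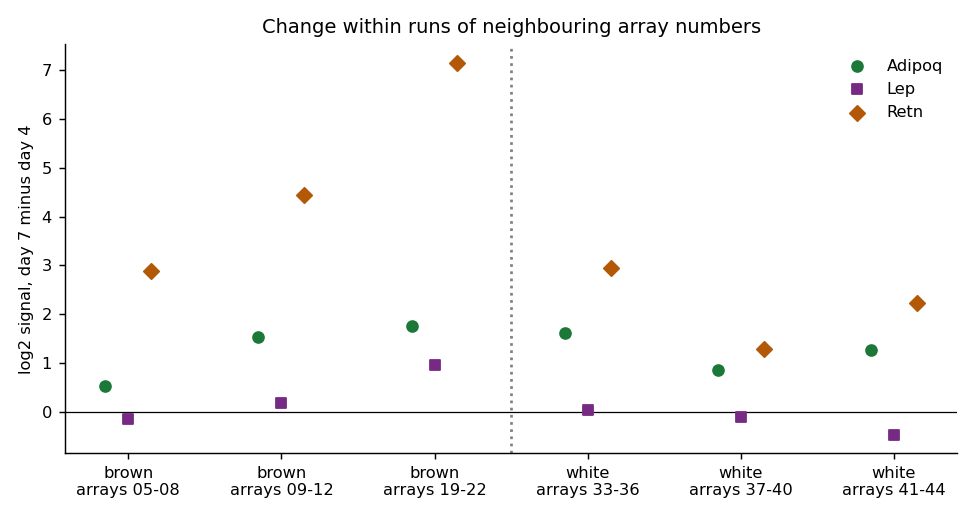
Log2 signal at day 7 minus day 4 (means of the arrays of each day) within each of the 6 runs of neighbouring array numbers, for Adipoq, Lep and Retn. All 6 values were above 0 for Adipoq (0.54 to 1.77) and for Retn (1.30 to 7.15), and 3 of 6 for Lep, with the upper ends 1.77 and 7.15 from the run of arrays 19 and 22 alone.

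Within each group, arrays with more Adipoq tended to have more Retn, though the order was not the same on every array. The correlation of their log2 signals was 0.868 at brown day 7 (n = 5), 0.883 at brown day 4 (n = 5), 0.910 at white day 7 (n = 6) and 0.924 at white day 4 (n = 8). At brown day 4 the Retn values of arrays 09 and 19 were both set to the floor. For deviations from the group means over the 24 arrays it was 0.865, against 0.446 for Adipoq with Lep and 0.309 for Lep with Retn. Lep followed Adipoq at day 4 (0.811 in brown and 0.606 in white cells) and not at day 7 (0.323 and -0.290). These values are descriptions, since both genes of a pair were read from the same arrays with the same scaling. The mean of the 13 adipocyte markers followed Adipoq (0.893 for deviations) and Retn (0.722) more closely than Lep (0.282). On brown day 4 array 06 the Adipoq signal of 4959 lay within the ranges of brown day 7 (4772 to 6306) and white day 7 (4611 to 6336), and the Retn signal of 330 lay below the lowest values of both, 536 and 1440.

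**Figure D4:**
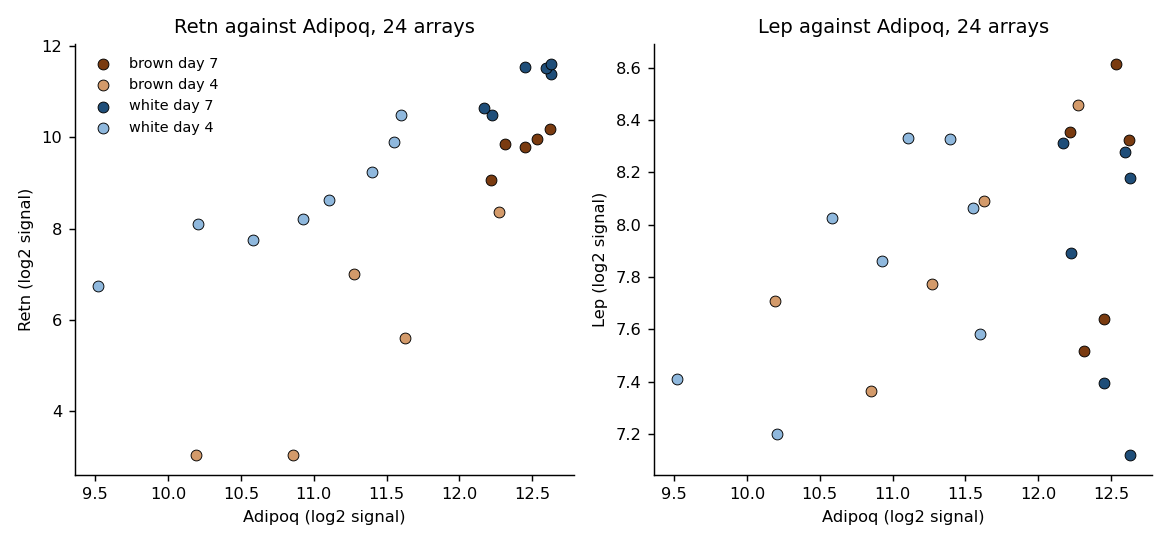
Log2 signal of Retn (left) and Lep (right) against that of Adipoq on each array, coloured by group. Retn tended to climb with Adipoq within each group (r = 0.868 to 0.924, with 2 brown day 4 arrays at the Retn floor). Brown arrays lay below white arrays of the same day at like Adipoq levels, and r of Lep with Adipoq ran from -0.290 to 0.811.

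The genes most like each hormone over the 24 arrays were named by the highest Pearson r of log2 signal among 6281 genes, as a description. For Adipoq they were Nabp1 (0.956), a DNA-binding protein, Pnpla2 (0.953), Cdo1 (0.938), which oxidises cysteine, Gpd1 (0.938), which makes glycerol phosphate for triglycerides, and Mgll (0.914), a monoglyceride lipase. By deviations from the group means, Cdo1 (0.933), Nabp1 (0.893), Pnpla2 (0.873), Gpd1 (0.868) and Retn (0.865) came first. For Retn they were Apoc1 (0.952) and Apoe (0.898), apolipoproteins, Mrap (0.934), an accessory protein of melanocortin receptors, Chpt1 (0.932), which makes phosphatidylcholine, and Pon2 (0.916), a paraoxonase. By deviations, Hp (0.880), the plasma protein haptoglobin, Apoc1 (0.870), Scp2 (0.868), a sterol carrier, Adipoq (0.865) and Chpt1 (0.831) came first.

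For Lep the highest values were lower, from 0.741 for Dok2, an adaptor of tyrosine kinases, through 0.717 for Taf1b, 0.686 for Top3b and 0.678 for Tm2d1 to 0.656 for Abhd17a. By deviations, Taf1b (0.749), Terf2 (0.748), Atp2c1 (0.744), Dok2 (0.737) and Kctd9 (0.736) came first. None of these genes stands in the adipocyte marker list.

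Of 7 genes listed for receptors and binding partners, 3 were bright enough to test. Adipor2, an adiponectin receptor, rose in white cells by 0.49 ± 0.13 (adjusted p = 0.0118) and measured 0.34 ± 0.16 in brown cells (adjusted p = 0.176). Adipor1 measured -0.02 ± 0.24 in brown and -0.36 ± 0.21 in white cells. Cap1, reported as a resistin receptor in human monocytes, fell in white cells by 0.76 ± 0.19 (adjusted p = 0.00718) and measured -0.05 ± 0.23 in brown cells. Neither white call remained once the fit included the Gapdh ratio, and without white day 4 arrays 45 and 51 no receptor was called higher in white cells. No receptor was called between brown and white cells, where 24.5% of genes were at day 4 and 25.4% at day 7. The leptin receptor gene Lepr, the adiponectin-binding cadherin gene Cdh13 and Ror1 stayed under the filter on all 24 arrays. The brighter Lepr probe set had medians of 7.52 at brown day 7, 4.48 at brown day 4, 11.2 at white day 7 and 6.58 at white day 4.

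Among 11 tested transcription factors and cofactors known to act on the 3 genes, 1 rose and 1 fell in brown cells, where 13% of genes changed, and 2 rose and 1 fell in white cells, where 19.5% changed. Cebpd, an early C/EBP factor, fell by 0.97 ± 0.22 in brown (adjusted p = 0.00452) and by 1.04 ± 0.19 in white cells (adjusted p = 0.000607). Pparg, the master factor of fat cell formation, rose in white cells by 0.63 ± 0.19 (adjusted p = 0.0239) and measured 0.37 ± 0.23 in brown cells. Srebf1, which drives lipid synthesis, rose in white cells by 0.92 ± 0.20 (adjusted p = 0.00231) and measured 0.57 ± 0.23 in brown cells. Atf3, a stress factor, rose in brown cells by 0.71 ± 0.21 (adjusted p = 0.0237). Cebpa measured -0.31 ± 0.23 and 0.11 ± 0.19, and Cebpb 0.08 ± 0.15 and 0.10 ± 0.12, in brown and white cells, and neither passed. Once the fit included the Gapdh ratio, 0 genes of this list were called in white cells.

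Between the cell types these factors did not follow one direction. Pparg was higher in brown cells by 1.17 ± 0.20 at day 4 (adjusted p = 0.000150) and by 0.91 ± 0.22 at day 7 (adjusted p = 0.00272), and Cebpa by 0.68 ± 0.20 at day 4 (adjusted p = 0.0166). Cebpb, which acts before Cebpa in fat cell formation, was lower in brown cells by 0.90 ± 0.13 at day 4 (adjusted p = 1.59e-05) and by 0.92 ± 0.14 at day 7 (adjusted p = 2.18e-05), as was the general factor gene Sp1 (-1.14 ± 0.26 and -1.69 ± 0.27), whose brown day 7 signal (median 21.8) lay near or under the filter. At day 7 Atf3 (0.87 ± 0.20) and Esrra, a regulator of mitochondrial genes (0.81 ± 0.22), were higher in brown cells. In all 2 of 11 were higher and 2 lower at day 4, where 24.5% of genes were called (11.7% higher and 12.8% lower), and 3 higher and 2 lower at day 7, where 25.4% were (13.2% higher and 12.3% lower). With the Gapdh ratio in the fit, 1 was called higher and 0 lower at day 7.

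Of 25 sequence relatives listed, 11 were on the array with a symbol of their own and 7 were tested. C1qtnf12, also called adipolin, a C1q-domain hormone of fat, rose in white cells by 0.74 ± 0.24 (adjusted p = 0.0332) and was higher in brown cells at day 4 (1.0 ± 0.26, adjusted p = 0.00556) and at day 7 (0.82 ± 0.27, adjusted p = 0.0289). The complement gene C1qc, expressed by macrophages, was lower in brown cells at day 7 by 1.08 ± 0.34 (adjusted p = 0.0193). Its partner C1qa was called lower in brown cells at day 7 (adjusted p = 0.0230) and higher in white cells at day 7 than at day 4 (adjusted p = 0.0414). C1qa was dim, with a signal of 6.45 to 25.5 at brown day 7, 20.7 to 62.1 at white day 7 and 8.47 to 59.2 at white day 4, so no size is given. Col8a1, a short-chain collagen with a C1q domain, was lower in brown cells at both days (-1.09 ± 0.26 and -0.86 ± 0.27), and Cbln1 at day 7 (-0.70 ± 0.18). C1qb and C1qtnf1 were called in no comparison. The resistin-like gene Retnlb was under the filter on all arrays, with medians of 6.66 at brown day 7, 6.44 at brown day 4, 5.51 at white day 7 and 4.93 at white day 4. No relative was called in brown cells between the days, where 13% of genes were. Of all genes 19.5% were called in white cells between the days. Between the cell types 24.5% were called at day 4 and 25.4% at day 7. In a fit that held the Gapdh ratio, 0 relatives were called in white cells, and 0 were called higher and 1 lower at day 7.

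Of 14 tested signalling genes downstream of the receptors, 1 rose and 1 fell in brown cells (median log2 difference 0.04), where 13% of genes were called, and 0 rose and 1 fell in white cells (median -0.16), where 19.5% were. Between the cell types 1 was higher and 3 lower in brown cells at day 4, where 24.5% of genes were called, and 1 higher and 2 lower at day 7, where 25.4% were. Socs1, an inhibitor of cytokine signalling, fell in brown by 0.81 ± 0.22 (adjusted p = 0.0154) and in white cells by 0.93 ± 0.19 (adjusted p = 0.00133), and Pik3r1, a regulatory subunit of phosphoinositide kinase, rose in brown cells by 0.79 ± 0.23 (adjusted p = 0.0230). Socs3, which limits leptin receptor signalling, was lower in brown than in white cells at day 4 by 1.17 ± 0.23 (adjusted p = 0.000525) and at day 7 by 0.88 ± 0.24 (adjusted p = 0.00867). Ptpn1, a phosphatase that acts on Jak2, was lower in brown cells at day 4 by 0.63 ± 0.18 (adjusted p = 0.0108), and Prkag1, an AMP kinase subunit, at both days by 0.43 ± 0.12 and 0.34 ± 0.12. Stat5a was higher in brown cells by 0.36 ± 0.13 and 0.37 ± 0.14 at day 4 and day 7. Once the fit included the Gapdh ratio, 0 of these genes were called in white cells or at day 7.

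Of 13 tested genes for folding and secretion in the endoplasmic reticulum, 1 rose and 1 fell in brown cells (median log2 difference -0.01), where 13% of genes were called. In white cells 0 rose and 3 fell (median -0.08), where 19.5% of genes were called. Gstk1, also called DsbA-L, which in mouse adipocytes promotes adiponectin assembly, rose in brown cells by 0.61 ± 0.20 (adjusted p = 0.0475) and measured 0.28 ± 0.17 in white cells. The oxidase gene Ero1a and the retention factor gene Erp44, which control release of adiponectin, measured 0.52 ± 0.21 and 0.11 ± 0.17 in brown and 0.24 ± 0.18 and -0.09 ± 0.14 in white cells, and neither passed (both named for their role, after their values were seen). In white cells the disulfide isomerase gene Pdia6 fell by 1.33 ± 0.17 (adjusted p = 1.99e-05), Ssr1, a translocon subunit, by 0.78 ± 0.11 (adjusted p = 7.80e-05) and Pdia4 by 0.34 ± 0.12 (adjusted p = 0.0366). With the Gapdh ratio in the fit, 0 of these 3 falls were called. The translocation channel gene Sec61a1 fell in brown cells by 0.56 ± 0.14 (adjusted p = 0.00869).

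Of 19 tested genes for other secreted proteins of fat, 8 rose and 0 fell in brown cells (median log2 difference 0.77), where 6.48% of genes rose and 6.5% fell. In white cells 2 rose and 1 fell (median -0.06), where 9.03% rose and 10.4% fell. The largest brown rises were those of Saa3, serum amyloid A (1.89 ± 0.27, adjusted p = 0.000104), the angiotensinogen gene Agt (1.60 ± 0.32, adjusted p = 0.00158) and Gpx3, a secreted glutathione peroxidase (1.40 ± 0.21, adjusted p = 0.000138). The growth factor gene Vegfa followed at 0.96 ± 0.28, Nampt, also called visfatin, at 0.88 ± 0.27 and the chemerin gene Rarres2 at 0.78 ± 0.19. In white cells Hp rose by 0.63 ± 0.16 (adjusted p = 0.00776) and Rarres2 by 0.49 ± 0.16 (adjusted p = 0.0320), and the apelin gene Apln fell by 0.52 ± 0.12 (adjusted p = 0.00454), and 0 of the 3 were called once the fit included the Gapdh ratio. The brown and white changes differed for Gpx3 (1.56 ± 0.28, adjusted p = 0.00941), and Agt did not pass that test (1.88 ± 0.42, adjusted p = 0.0544). That test called 0.191% of genes, 0.143% above 0 and 0.0478% below, and 0 of the 19 once the fit included the Gapdh ratio.

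**Figure D5:**
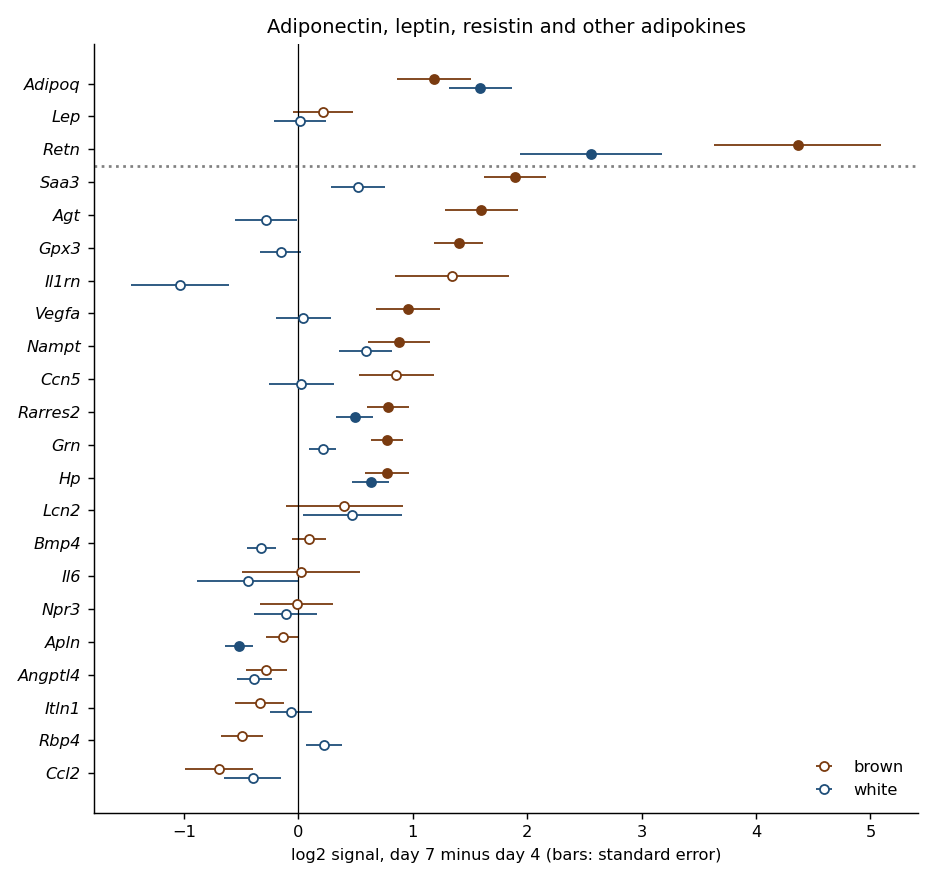
Log2 signal at day 7 minus day 4 in brown and white cells for Adipoq, Lep and Retn (above the dotted line) and 19 other adipokine genes, with standard errors as bars and filled points where the adjusted p was under 0.05. Of the 19, 8 rose in brown cells and 2 rose and 1 fell in white cells.

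Between the cell types, 5 of the 19 were higher and 5 lower in brown cells at day 4, where 11.7% of genes were higher and 12.8% lower. At day 7, 7 were higher and 1 lower, where 13.2% of genes were higher and 12.3% lower. Saa3 was the 1 lower on both days, by 2.51 ± 0.25 at day 4 (adjusted p = 2.30e-08) and by 1.14 ± 0.26 at day 7 (adjusted p = 0.00200), and shared that direction with Retn. Agt was lower in brown cells at day 4 (-1.58 ± 0.29, adjusted p = 0.000234) and measured 0.30 ± 0.31 at day 7. Il1rn, which encodes the interleukin-1 receptor antagonist, was called higher in brown cells on both days (adjusted p = 0.0246 at day 4 and 1.61e-06 at day 7). Its signal was 99.4 to 243 at brown day 7, against 3.48 to 21.1 at white day 7, where 4 of 6 arrays lay at the floor and the size of the difference is set by that floor. Ccn5 was higher in brown cells by 0.98 ± 0.30 at day 4 and 1.81 ± 0.32 at day 7. Angptl4, an inhibitor of lipoprotein lipase, was also higher on both days, by 0.84 ± 0.16 and 0.95 ± 0.17. In a fit that held the Gapdh ratio, 1 of the 19 was called higher and 0 lower at day 7.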

How the data were processed

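The deposited table holds probe set intensity on a linear scale for 12488 probe sets on 24 arrays, made by the authors with MAS5, per the submitters' processing notes, with no version or genome build given in the sources used here. MAS5 subtracts mismatch signal, so dim values are noisy. Signals were rescaled so that the 2% trimmed mean of every array was 150, raised to a floor at the 20th percentile (8.21) where they lay below it, and turned into log2 values. Kept were 8397 probe sets above the 40th percentile of their array on at least 5 arrays, without 66 controls. Symbols came from the platform annotation (1 symbol for 10855 probe sets, several for 396, none for 1237), and 10839 matched RefSeq by identifier. A gene stands on its brightest tested probe set (6281 genes). The 4 group means were fitted with limma 3.58.1 (intensity trend, 20 residual degrees of freedom) in R 4.3.3, two-sided, with Benjamini-Hochberg adjustment over all 8397 and a threshold of 0.05. Values after ± on the log2 scale are standard errors. On simulated data for the brown comparison (8397 probe sets) the fit recovered 69 of 100 changes of 1 and 95 of 100 changes of 2 in log2. With no read depth on arrays, precision is limited by how many there are. The members, lists and tests were chosen with earlier results of these data known. Genes like a member were the 5 with the highest r, and list genes were named where called, at most 6 a list, with receptors, relatives, Pparg, Cebpa, Cebpb and Srebf1 in any case. Alternatives changed the floor, scaling, filter, variance model, arrays, covariate, block and probe set.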

Additional observations from a re-analysis of the deposited data

Results flagged for a closer look

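The change from day 4 to day 7 differed between brown and white cells for 2 genes of the lists around the hormones, and for none of Adipoq, Lep and Retn. Gpx3 changed by 1.40 ± 0.21 in brown and -0.16 ± 0.18 in white cells (log2, difference 1.56 ± 0.28, limma adjusted p = 0.00941). Its signal was 4114 to 6528 at brown day 7, against 1067 to 2962 at brown day 4, and 2823 to 4367 at white day 7, against 2780 to 5771 at white day 4. Pdia6 changed by -0.14 ± 0.20 in brown and -1.33 ± 0.17 in white cells (difference 1.20 ± 0.26, adjusted p = 0.0477). With the Gapdh ratio in the fit, 0 genes of their lists were called for this difference, and without white day 4 arrays 45 and 51 the list that holds Pdia6 had 0 such calls and the list that holds Gpx3 had 1. No array stood apart from its group for any of the 4 probe sets of the 3 hormones.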

How the results depend on the processing

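Adipoq in brown cells measured 0.92 to 1.44 with single arrays left out, passing in 9 of 10 fits. Retn passed in every fit with 1 array left out between the days in brown (3.77 to 5.10) and white cells (2.29 to 2.82) and between cell types at day 4 (-3.97 to -2.64), and at day 7 in none (-1.57 to -1.25). At day 7 Retn passed as -1.39 on the scale of log2(signal + 32), -1.48 with array weights and -1.43 with only the 2 groups, where the spread of the day 4 arrays is not pooled, and measured -2.29 (adjusted p = 0.356) with the Gapdh ratio in the fit. Once the fit included the Gapdh ratio, the white rises of Adipoq (1.29) and Retn (3.31) lost their calls, Adipoq at day 7 turned to 0.32 (-0.0767 to 0.0313 with single arrays left out), and 37 probe sets passed in white cells and 274 at day 7, against 1595 and 2112. Uncalled Lep values turned sign. In white cells they were -0.0105 with quantile normalization, -0.0331 with array weights, -0.17 without arrays 45 and 51, -0.17 with runs as a block and -0.28 with the Gapdh ratio (-0.0811 to 0.16 with single arrays left out). In brown cells the value was -0.000745 with array weights. At day 4 it was -0.0200 with array weights and -0.15 without arrays 45 and 51 (-0.12 to 0.16 with single arrays left out). The difference of changes was -0.10 with the other probe set. In brown cells 1012 probe sets passed, 1665 with array weights, 1638 with runs as a block and 672 to 1170 with single arrays left out (672 without brown day 7 array 08). In white cells 1046 passed without arrays 45 and 51. For the difference of changes 18 passed, and 10 with no floor, 35 with the higher floor, 8 with the stricter filter, 10 with no filter, 11 with no intensity trend, 45 with array weights, 5 with the Gapdh ratio, 61 with runs as a block and 7 to 23 with single arrays left out. Where no construction shows the cause, the cause was not tested. No pairing by replicate number was possible because the labels give no array number to more than 1 group, and the runs, read off the order of the numbers, served as a block instead.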

Other observations

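Adjacent array numbers within the day 4 groups form 5 pairs, and in each the higher number had more Retn and more Adipoq, a pattern noticed after the values were seen and not tested. In brown cells Retn was 330 on array 06 against 48.8 on array 05, and 128 on array 10 against 6.09 on array 09. In white cells it was 609 on array 34 against 217 on array 33, 958 on array 38 against 398 on array 37, and 1442 on array 42 against 297 on array 41. Adipoq was 1.57, 2.12, 1.76, 1.36 and 1.59 times as high on arrays 06, 10, 34, 38 and 42 as on the number before. The median log2 difference of Retn over the 5 pairs, 2.28, ranked at place 2 of 8397 probe sets, and that of Adipoq, 0.67, at place 276. Of all probe sets 6.73% were higher on the higher number in all 5 pairs and 8.11% lower in all 5. The mean of the 13 adipocyte markers was higher in 5 of 5 pairs, and 6 of the 13 were higher in all 5. At day 7 that mean was higher in 4 of 5 pairs, and 1 of the 13 was higher in all 5. At day 7 the ratio within the 5 pairs was 0.886 to 1.07 for Adipoq and 0.956 to 1.73 for Retn, and Lep had no common direction on either day. The labels do not say what neighbouring numbers share.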
